A study of Mus musculus with 24 samples.

Results

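Cells that had been without estradiol for 24 h were compared with cells without it for 12 h, across every gene of the deposited count table, in 4 of the 24 libraries of the series. The 4 libraries were chosen by time alone, 2 at 12 h and 2 at 24 h. Of 45319 genes listed, 14615 passed a filter on low counts and were tested. The spread was estimated from all 20 withdrawal libraries, 2 at each of 10 times, fitted together with time as a factor.

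The cells were Lys-GFP-ER-HoxA9 cells of the C57Bl/6 strain, a mouse myeloid progenitor line that carries HoxA9 fused to an estrogen receptor and a green fluorescent reporter for lysozyme. They were grown in RPMI1640 medium with foetal bovine serum, Stem Cell Factor and 0.5 uM beta-estradiol, and then cultured without beta-estradiol for the stated time, so line, strain, fusion and reporter were common to both groups. The comparison has no arm kept in estradiol for the same hours, so time in culture and time without estradiol cannot be told apart. The labels do not say how many clones the line holds or whether the 2 libraries of a time came from separate cultures, so p-values here measure only the spread between these libraries, which may be technical. Letters A and B name the libraries of a time as the table does.

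HoxA9 is a homeobox transcription factor that keeps myeloid progenitors dividing and immature. In estrogen receptor fusion lines estradiol keeps the fused factor active, and removal of estradiol lets the cells mature. Along the granulocyte path progenitor genes such as Cd34 and Flt3 are turned down, C/EBP transcription factors change over, and granule proteins are made in order, first those of primary granules (Mpo, Elane) and later those of secondary granules. Eosinophils branch from early granulocyte precursors and make their own granule proteins, among them Prg2 and Epx.

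The 4 libraries held 40.1 to 47.93 M counts in genes or 84.49 to 84.71% of reads. A count was seen for 17255 to 17508 genes per library. The 2 libraries of a time had a Pearson correlation across genes of 0.9946 at 12 h and 0.9961 at 24 h on the log2 scale, given without a p-value because genes are not independent. The share of counts from mitochondrially encoded genes was 1.459% and 1.487% in the A libraries and 1.079% and 1.184% in the B libraries. In these 4 libraries it therefore differed more by letter than by time. Across the other times it followed no letter, with the B library higher at 0 h (0.8885% against 0.8224%) and the A library higher at 36 h (1.231% against 0.8801%). Progenitor markers were present in all 4 libraries, with Kit at 378 to 540 CPM (read counts scaled to the library total with TMM factors), Cd34 at 831 to 2139 CPM and Ptprc, which encodes the pan-leukocyte antigen CD45, at 208 to 278 CPM. Of 13 T and NK cell markers 9 had no count in the 4 libraries, among them Cd3e and Cd4, and of 12 erythroid markers 5 had none, among them Hba-a1 and Hbb-bs. Among 10 markers of fibroblast, endothelial and epithelial cells 6 had none, among them Col3a1 and Epcam. Reads that map to several places were not counted for any gene. For genes with near-identical copies, such as Hba-a1, no count is therefore weak evidence of absence. In bulk RNA, fewer cells of a kind and less RNA per cell cannot be told apart. Lyz2, the macrophage and granulocyte lysozyme, had no count in any of the 4 libraries.

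Between 12 and 24 h, 1171 genes rose (8.01% of those tested) and 1688 fell (11.5%), 2859 in all (19.6%), at an adjusted p under 0.05 in edgeR's quasi-likelihood test with Benjamini-Hochberg adjustment. The falls were larger than the rises: the median log2 change was -0.80 among genes that fell and 0.52 among genes that rose, and 0 over all genes tested. Of the genes called, 656 fell at least 2-fold (4.49% of those tested) and 261 rose at least 2-fold (1.79%). Both libraries of one time lay above both of the other for 8625 genes (59%). Where single genes are said below not to overlap, that share of all genes tested applies. The shares of 8.01% higher and 11.5% lower apply likewise to the counts of each list. Without 24 h A the numbers were 637 higher and 1020 lower, without 24 h B 639 and 1023, without 12 h A 774 and 1199, and without 12 h B 761 and 1267.

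**Figure D1:**
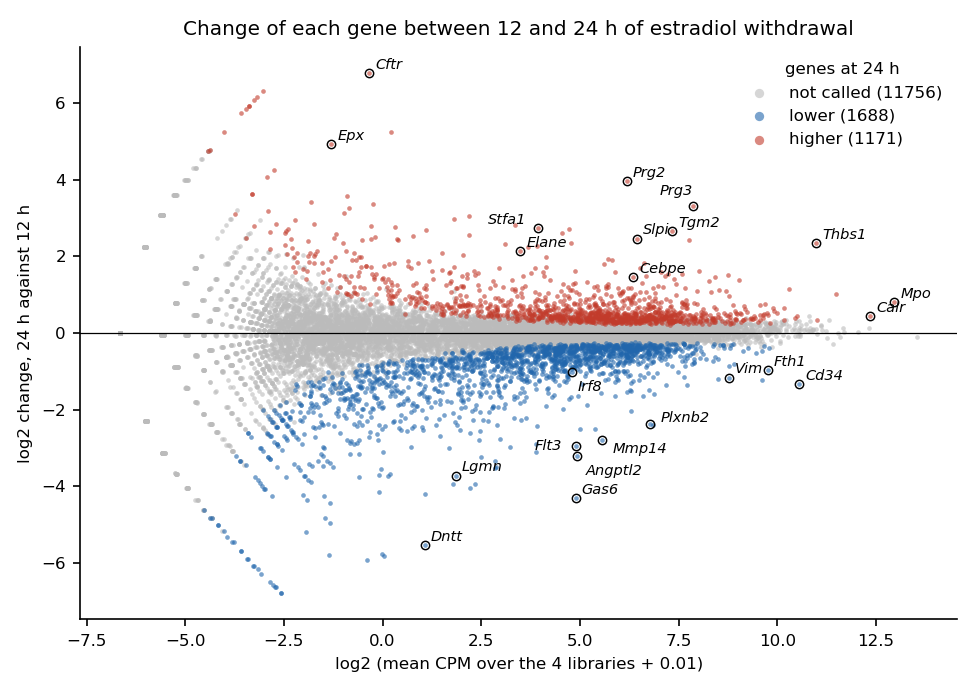
Change of each of the 14615 tested genes between 12 and 24 h of withdrawal (vertical axis, log2 change) against its level (horizontal axis, log2 of the mean CPM over the 4 libraries plus 0.01). Red points are the 1171 genes that rose, blue points the 1688 that fell and grey points those not called; Prg2 and Prg3 stand at the top among well expressed genes and Gas6 at the bottom.

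The eosinophil granule genes Prg2 and Prg3 had the highest log2 changes among genes whose log2 CPM averaged at least 3 and whose libraries did not overlap. Prg2, the eosinophil major basic protein (chr2:84980461-84983632, plus strand, GRCm38), was at 7.69 and 9.88 CPM at 12 h and at 133 and 140 CPM at 24 h. Its log2 change was 3.96 ± 0.15 (SE, adjusted p = 8.49e-13). Prg3, the neighbouring gene for a related basic protein (chr2:84988215-84993886, plus strand), was at 38.1 and 46.2 CPM at 12 h and at 418 and 427 CPM at 24 h, a log2 change of 3.33 ± 0.18 (adjusted p = 1.09e-10). Both 24 h libraries lay far above both 12 h libraries for each gene, though the choice of these genes required that the times not overlap. Epx, the eosinophil peroxidase, had 2 counts over the 12 h libraries and 71 over the 24 h libraries, a ratio of 33.9 (95% interval 9.06 to 286, counting error only).

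Over the eosinophil list, 4 of 10 tested markers rose and 1 fell, with a median log2 change of 1.61 against 0 over all genes. That median was 0.76 with Ear6, which had no count at 12 h and 7 counts at 24 h, set at its bound of 2.23-fold. Siglecf, a lectin of the eosinophil surface, fell from 53.1 and 58.2 CPM to 35.4 and 36.0 CPM (log2 change -0.64 ± 0.12, adjusted p = 0.000462). Cd24a, Ear1 and Ear10 had no count in the 4 libraries, where the limit given above for genes with near-identical copies may apply. The summed level of the list was 108 and 122 CPM at 12 h and 595 and 612 CPM at 24 h. Mast cell and basophil markers were mixed, with 4 of 10 higher and 3 lower: Hdc, the enzyme that makes histamine, rose from 42.8 and 44.5 CPM to 142 and 139 CPM, and Gata2, a transcription factor of progenitors and mast cells, fell from 127 and 126 CPM to 87.3 and 87.1 CPM. Without any 1 of the 4 libraries 2 mast cell and basophil markers were higher, and without 24 h A 1 was lower.

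Cebpe, the C/EBP transcription factor needed for granulocyte maturation, was at 36.2 and 50.3 CPM at 12 h and at 117 and 122 CPM at 24 h (log2 change 1.47 ± 0.14, adjusted p = 2.45e-07). Every 24 h library was above every 12 h library. Cebpa, the earlier acting member of the family, was at 246 and 254 CPM and then at 216 and 218 CPM, and was not called (log2 change -0.21 ± 0.10, adjusted p = 0.154). Cebpd was not called either, at 9.07 and 10.6 CPM and then 10.1 and 11.4 CPM (adjusted p = 0.67). Cebpb was at 9.82 and 11.3 CPM and then at 14.5 and 17.5 CPM (log2 change 0.60 ± 0.20, adjusted p = 0.0425), a call that was lost with RLE scaling (adjusted p = 0.0501) and without any 1 of the 4 libraries (adjusted p 0.0585 to 0.283).

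Gfi1, a zinc finger repressor needed by neutrophil precursors, rose from 115 and 126 CPM to 188 and 204 CPM, a log2 change of 0.71 ± 0.14 (adjusted p = 0.000845). Irf8, which directs monocyte and dendritic cell fates, fell from 37.7 and 36.6 CPM to 17.6 and 19.0 CPM, a log2 change of -1.02 ± 0.10 (adjusted p = 2.68e-07). Irf4 was scarce at 12 h, at 0.473 and 0.517 CPM, and was at 3.01 and 2.76 CPM at 24 h. Spi1, which encodes PU.1, and Myb, a factor of dividing progenitors, were not called. Spi1 was at 139 and 160 CPM and then 168 and 174 CPM, and Myb at 817 and 730 CPM and then 877 and 842 CPM. In the list of myeloid transcription factors 7 of 33 rose and 5 fell, with a median log2 change of 0. The number higher was 4 without 24 h A, 12 h B or 24 h B, and the number lower was 2, 1, 2 and 1 without 12 h A, 24 h A, 12 h B and 24 h B.

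Of the genes behind the parts of the fusion, Hoxa9 was not called and Esr1 rose slightly. Reads of Hoxa9 were at 170 and 163 CPM at 12 h and at 178 and 178 CPM at 24 h, and the gene was not called (adjusted p = 0.571). Esr1, the estrogen receptor gene, was at 55.8 and 50.6 CPM and then at 67.6 and 61.8 CPM (log2 change 0.28 ± 0.09, adjusted p = 0.039). That call was lost with RLE scaling (adjusted p = 0.0587), with no filter (0.0814), with only the libraries at the compared times (0.0556), and without 24 h A (0.271), 12 h B (0.247) or 24 h B (0.0615). Counts per gene do not separate reads of the native genes from reads of the fusion. Meis1, a homeobox partner of HoxA9, fell from 16.6 and 14.9 CPM to 9.19 and 10.0 CPM (log2 change -0.72 ± 0.13, adjusted p = 0.000337).

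Of 17 tested genes in the primary granule list 7 rose and 1 fell, with a median log2 change of 0.50. The list is broader than the contents of these granules, and Ms4a3 and Serpinb1a are among its genes that rose. The 1 lower was no longer called without 24 h A, 12 h B or 24 h B. The summed level of the whole list went from 10500 and 12100 CPM to 19300 and 20200 CPM. Mpo, myeloperoxidase, was at 5377 and 6211 CPM at 12 h and 9909 and 10460 CPM at 24 h (log2 change 0.81 ± 0.23, adjusted p = 0.0149). The Mpo call was lost without 12 h A (adjusted p = 0.117), 24 h A (0.0529) or 24 h B (0.0853), while both 24 h libraries stood above both 12 h ones. Elane, neutrophil elastase, was far scarcer at 12 h than at 24 h, with 4.02 and 4.19 CPM against 16.4 and 19.9 CPM (log2 change 2.15 ± 0.25, adjusted p = 2.46e-06). Ms4a3, a membrane protein typical of granulocyte and monocyte progenitors, was at 57.1 and 78.0 CPM and then at 355 and 376 CPM, a log2 change of 2.43 ± 0.20. Hp, haptoglobin, went from 59.7 and 73.5 CPM to 193 and 207 CPM, and Serpinb1a, an inhibitor of neutrophil elastase, from 746 and 809 CPM to 1717 and 1756 CPM.

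Secondary and tertiary granule genes were mostly not called at this step: 5 of 20 rose and the median log2 change was 0.10. None fell in edgeR or DESeq2, 2 were lower at an unadjusted p under 0.05, and 2 were called lower with no filter or with only the libraries at the compared times. Anxa1, annexin A1, rose from 128 and 128 CPM to 397 and 387 CPM. Fcnb, ficolin B, rose from 4.66 and 5.34 CPM to 11.2 and 11.9 CPM, and Chil3, a chitinase-like secreted protein, from 3.93 and 2.85 CPM to 7.22 and 7.70 CPM. All 3 had both 24 h libraries above both 12 h ones.

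Genes of mature neutrophils and phagocytes went both ways, with 12 of 41 higher and 7 lower and a median log2 change of 0.10. Stfa1, a stefin protease inhibitor, rose from 4.11 and 3.93 CPM to 27.4 and 25.9 CPM (log2 change 2.73 ± 0.23), and Clec4a2, a C-type lectin, from 0.946 and 1.01 CPM to 8.60 and 7.68 CPM. Itgam, the CD11b integrin chain, rose from 15.0 and 14.0 CPM to 30.6 and 31.3 CPM (log2 change 1.09 ± 0.15, adjusted p = 1.39e-05). In the other direction, Il1r2, the decoy receptor for interleukin 1, fell from 2.15 and 2.52 CPM to 0.407 and 0.388 CPM, and Trem1, an activating receptor of myeloid cells, from 34.3 and 35.8 CPM to 15.6 and 16.1 CPM. With only the libraries at the compared times in the fit, 11 of these genes were lower.

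Of 16 lipid mediator genes tested, 4 rose and 4 fell. Ltb4r1, the receptor for leukotriene B4, rose from 6.00 and 7.08 CPM to 38.9 and 41.3 CPM (log2 change 2.62 ± 0.14, adjusted p = 9.54e-11). Lta4h, the enzyme that makes leukotriene B4, rose from 180 and 186 CPM to 489 and 511 CPM. Cyp4f18, an enzyme outside the list that breaks leukotriene B4 down, fell from 16.8 and 21.0 CPM to 4.00 and 3.82 CPM (log2 change -2.27 ± 0.21). Ltc4s, which makes leukotriene C4, fell from 1.78 and 2.31 CPM to 0.634 and 0.470 CPM, and Hpgds, the haematopoietic prostaglandin D synthase, from 6.83 and 5.46 CPM to 1.29 and 1.04 CPM. In each of these genes the libraries of the 2 times did not overlap.

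Several genes with large rises were outside the groups above. Tgm2, transglutaminase 2, was at 42.8 and 45.7 CPM and then at 279 and 279 CPM (log2 change 2.66 ± 0.18, adjusted p = 1.92e-09). Slpi, a secreted inhibitor of neutrophil elastase, was at 24.9 and 28.3 CPM and then at 143 and 150 CPM (log2 change 2.46 ± 0.11). Thbs1, thrombospondin 1, had the largest rise in absolute level, apart from Mpo, from 690 and 636 CPM to 3576 and 3148 CPM. The other genes among the 12 highest log2 changes were Mgam, a maltase and glucoamylase, at 2.71, Far2, a fatty acyl-CoA reductase, at 2.35, Ccdc125 at 2.28 and Syne1, a giant protein of the nuclear envelope, at 2.24. Plac8, which is in the primary granule list, went from 1733 and 2037 CPM to 3793 and 3849 CPM. Dstn, an actin-severing protein, went from 296 and 287 CPM to 768 and 744 CPM.

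**Figure D2:**
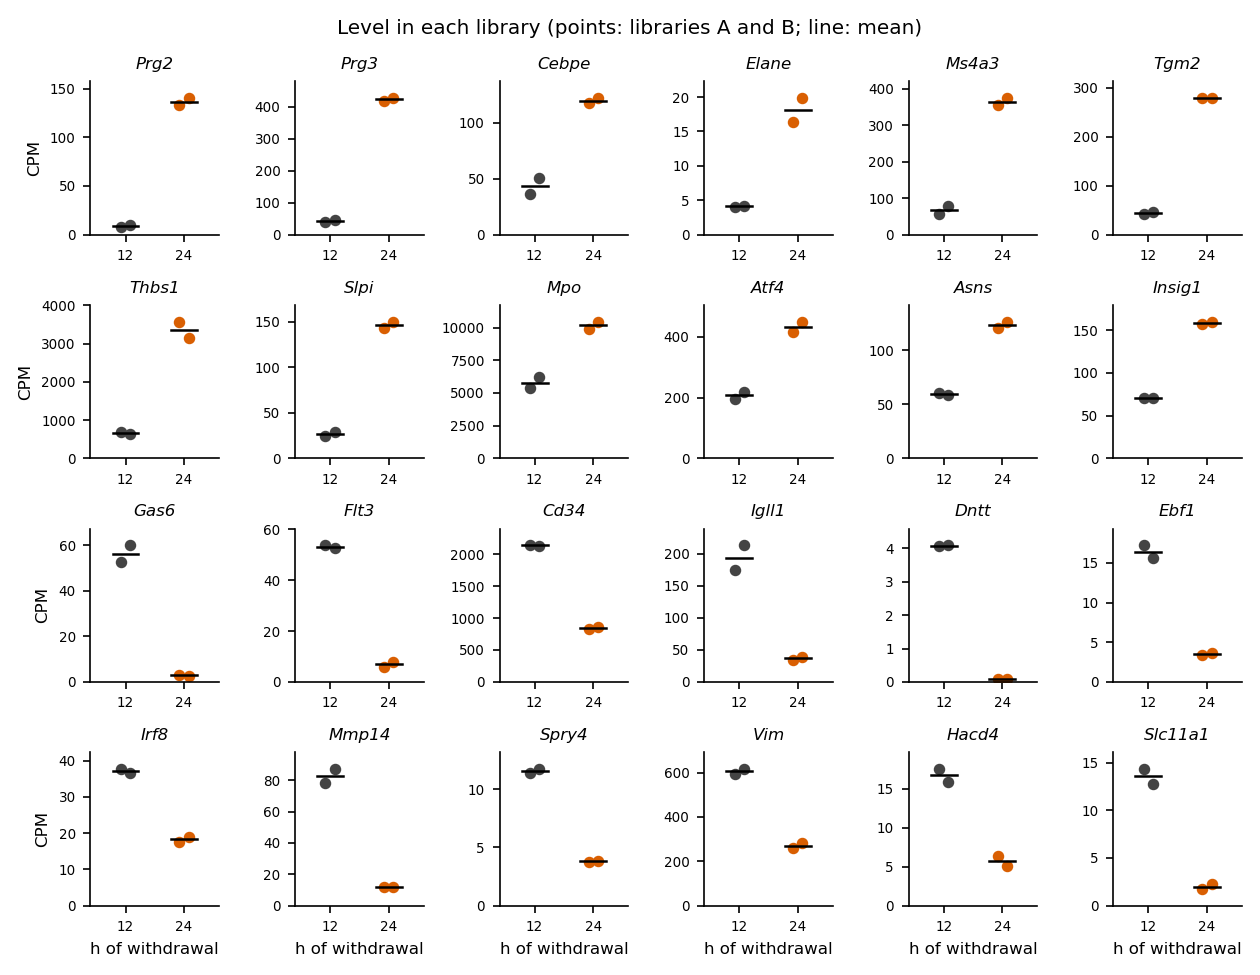
Level in CPM (vertical axis, from 0) of 24 genes in each library at 12 h (grey) and 24 h (orange) of withdrawal; points are libraries A and B and lines are their means. In all 24 panels both libraries of one time lie above both of the other, for example Prg2 at 7.69 and 9.88 CPM against 133 and 140 CPM. The same holds for 59% of all genes tested, and the choice of some of these genes required it.

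Promoters of strongly rising genes are shown because Cebpe, a C/EBP factor, rose at this step. Whether Cebpe acts on these genes was not tested. RefSeq promoter sequence (GRCm38.p6) was at hand for 10162 of the 14615 tested genes and was searched over the 250 bases before the start, on both strands. Over all genes called, the C/EBP motif TTNNGNAA was present in 31.6% of 889 promoters of genes that rose and 27.8% of 1308 that fell. These shares were near the 29.1% of all promoters. Among genes that changed at least 2-fold it was present in 45.7% of 175 promoters of those that rose. For those that fell at least 2-fold the share was 31.6% of 487. Other motifs also had a higher share in the 175 than in all promoters. The HOX-PBX motif, searched as TGATTNAT, had 4.0% against 1.32%, and the motif AGATAA of the GATA family 10.9% against 6.14%. The RUNX motif TGTGGT had 16.6% against 11.4%. In the 487 promoters of genes that fell their shares were higher than in all promoters too, at 3.08%, 9.86% and 15.4% in that order. In the B lymphoid list, of which 12 of 13 genes fell, 60.0% of 10 promoters held the C/EBP motif. Among the 12 genes with the highest log2 changes 4 of 9 promoters held it, and among the 12 with the lowest 2 of 10. A match is a description of letters and not a binding site. Matches may overlap those of other motifs. The windows of Prg3 (chr2:84987965-84988214, plus strand), Slpi (chr2:164356508-164356757, minus strand) and Ms4a3 (chr19:11640852-11641101, minus strand) follow, 5′ to 3′ on the gene's strand, with matches in capitals:
Prg3: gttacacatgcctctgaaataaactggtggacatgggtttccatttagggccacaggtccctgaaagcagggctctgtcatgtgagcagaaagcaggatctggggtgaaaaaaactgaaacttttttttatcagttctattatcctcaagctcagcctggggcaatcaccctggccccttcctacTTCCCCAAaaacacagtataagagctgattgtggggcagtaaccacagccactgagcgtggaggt
Slpi: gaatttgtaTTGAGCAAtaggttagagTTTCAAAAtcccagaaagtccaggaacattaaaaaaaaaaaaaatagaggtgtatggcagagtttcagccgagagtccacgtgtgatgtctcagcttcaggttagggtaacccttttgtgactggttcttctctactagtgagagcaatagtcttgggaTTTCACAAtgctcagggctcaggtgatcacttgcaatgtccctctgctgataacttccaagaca
Ms4a3: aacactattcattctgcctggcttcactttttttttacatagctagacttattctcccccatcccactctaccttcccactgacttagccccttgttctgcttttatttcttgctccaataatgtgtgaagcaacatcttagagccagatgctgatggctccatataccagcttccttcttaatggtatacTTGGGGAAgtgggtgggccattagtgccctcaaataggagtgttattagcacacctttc

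Of 27 tested genes of cholesterol synthesis, uptake and efflux, 18 rose and 2 fell, with a median log2 change of 0.54. Insig1, which holds back SREBP processing and is itself an SREBP target, was at 70.7 and 70.0 CPM at 12 h and 158 and 160 CPM at 24 h (log2 change 1.17 ± 0.09, adjusted p = 8.31e-09). Sc5d went from 43.7 and 43.3 CPM to 92.8 and 94.0 CPM, Msmo1 from 43.6 and 42.8 CPM to 91.5 and 90.1 CPM, and Fdps from 1.76 and 2.49 CPM to 5.91 and 6.03 CPM. These 3 encode enzymes of the sterol and isoprenoid path, and none of their 24 h libraries overlapped the 12 h ones. The 2 genes that fell were the cholesterol exporters: Abca1 from 21.2 and 14.1 CPM to 6.63 and 5.58 CPM (log2 change -1.54 ± 0.24) and Abcg1 from 64.9 and 58.6 CPM to 38.1 and 37.5 CPM (log2 change -0.71 ± 0.09).

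Promoters of this group are shown for the letters CCAAT, the core of NF-Y binding motifs, which were present in 84.2% of 19 promoters of the list against 36.5% of all. In the G2/M list they were present in 87.5% of 24. The sterol element bound by SREBP was also searched. Its full form was present in 0 of the 19 promoters and in 3 of all 10162, too few to compare. Its shorter core was present in 2 of the 19 (10.5%) against 2.5% of all. The windows of Sc5d (chr9:42264301-42264550, minus strand) and Mvd (chr8:122443423-122443672, minus strand), a mevalonate path enzyme with a log2 change of 0.85, follow in the same form:
Sc5d: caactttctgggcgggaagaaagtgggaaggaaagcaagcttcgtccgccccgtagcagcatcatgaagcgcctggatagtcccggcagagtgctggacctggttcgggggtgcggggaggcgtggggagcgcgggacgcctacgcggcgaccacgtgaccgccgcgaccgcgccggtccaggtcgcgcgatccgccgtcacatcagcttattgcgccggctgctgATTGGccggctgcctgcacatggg
Mvd: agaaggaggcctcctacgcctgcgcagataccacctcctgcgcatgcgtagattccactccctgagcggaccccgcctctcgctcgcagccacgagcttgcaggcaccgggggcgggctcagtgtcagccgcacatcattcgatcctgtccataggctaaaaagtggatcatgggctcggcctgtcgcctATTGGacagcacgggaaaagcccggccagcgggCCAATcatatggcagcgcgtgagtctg

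Of 21 genes of the amino acid response 11 were higher, with none lower in edgeR (nor in DESeq2 or at an unadjusted p under 0.05) and a median log2 change of 0.32. Atf4, the transcription factor of this response, was at 196 and 218 CPM at 12 h and 416 and 450 CPM at 24 h (log2 change 1.06 ± 0.10, adjusted p = 1.51e-07). Asns, asparagine synthetase, rose from 60.1 and 58.3 CPM to 120 and 126 CPM (log2 change 1.06 ± 0.09, adjusted p = 5.52e-08). Trib3, a pseudokinase that restrains the response, rose from 9.80 and 11.1 CPM to 25.6 and 29.1 CPM (log2 change 1.39 ± 0.22). Chac1, an enzyme that degrades glutathione, rose from 1.16 and 1.32 CPM to 2.35 and 2.76 CPM. Each of these genes had both 24 h libraries above both 12 h ones. Mthfd2, a mitochondrial folate enzyme kept in the nucleotide synthesis list, rose from 63.0 and 67.0 CPM to 135 and 140 CPM. The number of list members higher was 6 without 12 h A, 24 h A or 24 h B.

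The composite element bound by ATF4 with C/EBP partners was searched as TGATGNAA, a motif added after the data had been seen. It was present in 35.0% of 20 promoters of the list and in 2.04% of all. The list was drawn up as ATF4 targets, so this share describes the list and not the change. Over all genes called, the motif was present in 2.02% of 889 promoters of genes that rose. Among those that fell it was present in 2.98% of 1308. Among genes that changed at least 2-fold it was present in 4.0% of 175 promoters of those that rose and 2.67% of 487 that fell. The window of Chac1 (chr2:119350992-119351228, plus strand), from which 13 bases annotated as exon were left off, is shown with its match in capitals:
Chac1: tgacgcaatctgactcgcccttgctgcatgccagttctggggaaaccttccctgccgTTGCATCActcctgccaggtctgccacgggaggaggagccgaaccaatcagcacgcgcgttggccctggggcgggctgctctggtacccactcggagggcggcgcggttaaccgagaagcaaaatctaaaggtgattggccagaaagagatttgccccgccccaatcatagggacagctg

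Of 22 genes of the unfolded protein response and endoplasmic reticulum machinery 12 were higher, with a median log2 change of 0.33. None was lower in edgeR, in DESeq2 or at an unadjusted p under 0.05. Hsp90b1, the chaperone GRP94, rose from 915 and 855 CPM to 1435 and 1364 CPM (log2 change 0.66 ± 0.12, adjusted p = 0.000564). Pdia6 and Pdia3, which are disulfide isomerases, each had a log2 change of 0.51 (adjusted p = 0.00107 and 0.00466). Calr, calreticulin, went from 4265 and 4519 CPM to 6018 and 5945 CPM (log2 change 0.45 ± 0.11, adjusted p = 0.00544), a call that was lost without 12 h A (adjusted p = 0.0524). The number of members higher was 7 without 24 h A.

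Of 28 G2/M and mitosis genes, 8 rose, the median log2 change was 0.28, and the lowest member was at 0.06. None was lower in edgeR, in DESeq2 or at an unadjusted p under 0.05. Cks2, a subunit of mitotic kinases, rose from 71.8 and 78.7 CPM to 108 and 114 CPM, and Cenpe, a kinetochore motor, from 74.2 and 67.0 CPM to 104 and 94.0 CPM. With only the libraries at the compared times, 14 of the 28 were higher, whereas 3, 3, 4 and 3 were higher without 12 h A, 24 h A, 12 h B and 24 h B. Of replication genes 1 of 30 rose, 1 fell, and the median was -0.03. None of them was higher without any 1 of the 4 libraries, and none lower without 24 h A, 12 h B or 24 h B. Mki67, a marker of cycling cells, was at 482 and 406 CPM and then at 536 and 531 CPM and was not called (adjusted p = 0.162). In the list of G1 cyclins, kinases and inhibitors of cyclin-dependent kinases 4 of 15 fell and 1 rose, with a median of -0.02. Fewer of each were called without some single libraries. Cdkn1a, the p21 inhibitor of these kinases, fell from 25.4 and 28.9 CPM to 13.3 and 14.8 CPM (log2 change -0.95 ± 0.18, adjusted p = 0.000695). The 1 that rose also encodes such an inhibitor, and cyclin genes were among those that fell.

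Biosynthesis genes were largely not called. In the ribosome biogenesis list 1 of 26 rose (median 0.08), none did without any 1 of the 4 libraries, and 3 did with only the libraries at the compared times. In the mitochondrial ribosome list 1 of 25 rose (median 0.14), with 2 without 12 h B and none without 12 h A, 24 h A or 24 h B. Myc, which drives many of these genes, was at 500 and 498 CPM and then at 392 and 411 CPM (log2 change -0.31 ± 0.11, adjusted p = 0.0447). The Myc call was lost without any 1 of the 4 libraries (adjusted p 0.127 to 0.218). Mlx, a partner of glucose-sensing factors in the same network, rose from 53.8 and 56.2 CPM to 137 and 134 CPM (log2 change 1.30 ± 0.08, adjusted p = 9.21e-10). No mitochondrially encoded gene among 12 was called in edgeR or DESeq2 or had an unadjusted p under 0.05 (median 0.14).

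**Figure D3:**
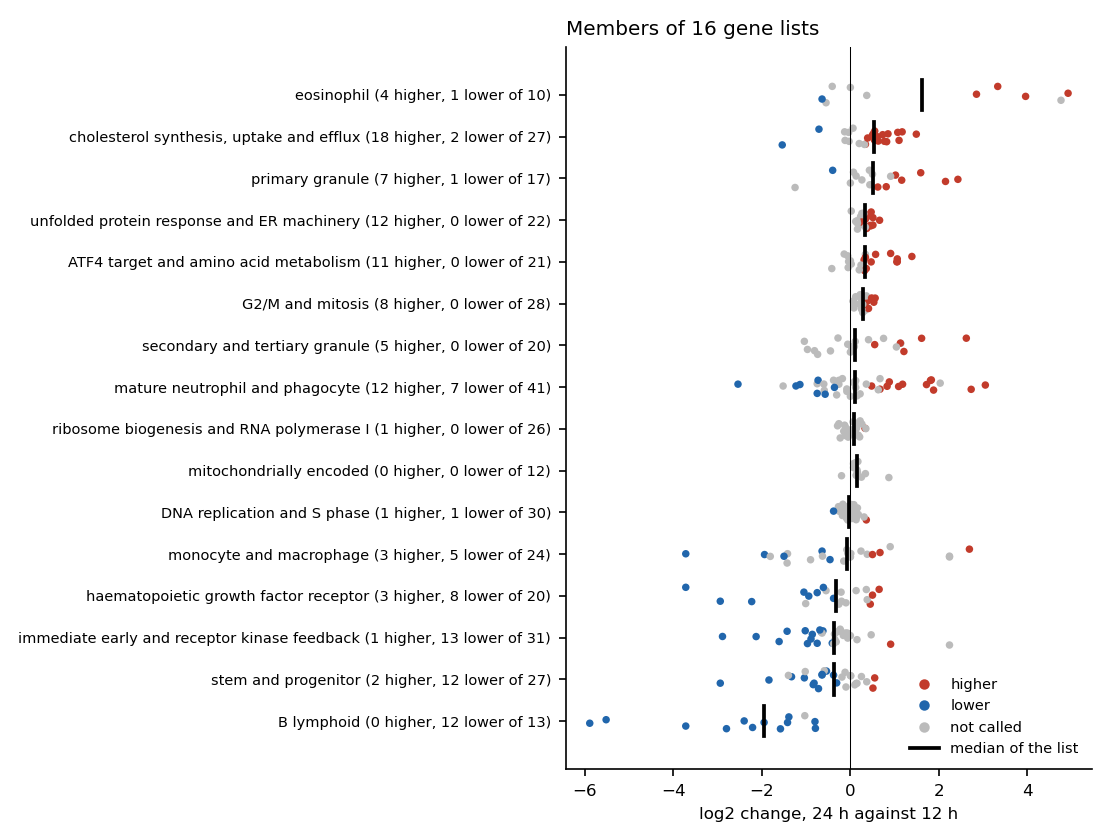
Log2 change between 12 and 24 h (horizontal axis) of each tested member of 16 gene lists (vertical axis), with red points higher, blue points lower, grey points not called, and a black bar at the median of the list. Eosinophil genes have a median of 1.61, cholesterol genes 0.54 and B lymphoid genes -1.95, against 0 over all genes tested.

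Of 27 tested regulators and markers of stem and progenitor cells, 12 fell, 2 rose and 13 were not called, with a median log2 change of -0.38. The number higher was 1 without 12 h A or 24 h B and 0 without 24 h A or 12 h B. Flt3, a growth factor receptor of early progenitors, was at 53.8 and 52.6 CPM at 12 h and at 6.04 and 7.76 CPM at 24 h (log2 change -2.94 ± 0.18, adjusted p = 6.57e-10). Cd34, a surface sialomucin of progenitors, had the largest fall in absolute level, from 2139 and 2132 CPM to 831 and 862 CPM (log2 change -1.33 ± 0.09, adjusted p = 3.19e-09). Gfi1b, which represses genes in red cell and platelet precursors, fell from 13.2 and 13.5 CPM to 3.67 and 3.78 CPM, and Hlf, a stem cell transcription factor, from 67.9 and 60.8 CPM to 32.1 and 30.6 CPM. In all 4 genes both 24 h libraries were below both 12 h ones. Kit, the receptor of Stem Cell Factor, was at 540 and 473 CPM and then at 401 and 378 CPM (log2 change -0.38 ± 0.11, adjusted p = 0.0224), and this call was lost without 12 h A (adjusted p = 0.19), 24 h A (0.0705) or 24 h B (0.17).

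Of 20 haematopoietic growth factor receptors 8 fell and 3 rose, with a median of -0.32. Tgfbr2, a receptor for TGF-beta, fell from 36.7 and 33.2 CPM to 16.9 and 16.9 CPM, and Il6ra, the interleukin 6 receptor, from 43.3 and 36.9 CPM to 22.2 and 19.8 CPM. Ifngr1, the interferon gamma receptor, rose from 76.5 and 77.5 CPM to 122 and 120 CPM (log2 change 0.65 ± 0.09, adjusted p = 2.58e-05). The number lower was 5 without 24 h A, and with no filter the number higher was 5.

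Among 31 immediate early genes and feedback inhibitors of the ERK path, 13 fell and 1 rose, with a median of -0.36. Dusp4, a phosphatase of ERK and related kinases, fell from 4.94 and 4.66 CPM to 1.15 and 1.04 CPM (log2 change -2.13 ± 0.24, adjusted p = 2.3e-06). Spry4, a Sprouty inhibitor, fell from 11.4 and 11.7 CPM to 3.78 and 3.82 CPM (log2 change -1.61 ± 0.13, adjusted p = 1.66e-08), and Spry1 and Dusp6 had log2 changes of -0.97 and -0.89. Pim1, a kinase induced by cytokines through STAT5, was the 1 that rose, from 80.7 and 85.2 CPM to 154 and 158 CPM. The number lower was 8 without 12 h A, 7 without 24 h A and 7 without 24 h B.

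B lymphoid genes, which the cells expressed at 12 h, were nearly all lower at 24 h: 12 of 13 fell, with a median of -1.95, and none was higher in edgeR, in DESeq2 or at an unadjusted p under 0.05. The summed level of the list was 266 and 314 CPM at 12 h and 70.2 and 81.7 CPM at 24 h, and none of the 14 listed genes was at 0 in all 4 libraries. Igll1, part of the surrogate light chain, fell from 175 and 213 CPM to 33.9 and 39.5 CPM (log2 change -2.40 ± 0.13, adjusted p = 8.53e-11). Dntt, the terminal transferase of antigen receptor recombination, fell from 4.06 and 4.09 CPM to 0.0905 and 0.0817 CPM. Ebf1, a B lineage transcription factor, fell from 17.2 and 15.6 CPM to 3.42 and 3.68 CPM (log2 change -2.21 ± 0.12), and Rag2, a recombinase subunit, from 10.9 and 10.8 CPM to 2.69 and 2.92 CPM. Each of these had both 24 h libraries below both 12 h ones. Rag1 and Il7r, named after their values were seen, had few counts: Rag1 had 15 at 12 h and 0 at 24 h, at least 5.23-fold lower against a floor of 3 counts over the group, and Il7r had 41 and 3, a ratio of 14.3 (95% interval 4.56 to 72.2). Intervals and floors cover counting error only.

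Of 24 monocyte and macrophage markers 5 were lower (20.8%) and 3 higher (12.5%), with a median of -0.07. Of all genes tested 11.5% were lower and 8.01% higher. Lgmn, a lysosomal protease, fell from 6.60 and 6.77 CPM to 0.430 and 0.572 CPM (log2 change -3.72 ± 0.24). Ccr2, the chemokine receptor of inflammatory monocytes, fell from 122 and 105 CPM to 40.2 and 40.3 CPM (log2 change -1.50 ± 0.14, adjusted p = 1.44e-07). Adgre4, an adhesion receptor of myeloid cells, rose from 0.580 and 0.564 CPM to 3.55 and 3.84 CPM (log2 change 2.69 ± 0.35). Cd36 and Marco were among those with no count, and the summed level of the list was 1190 and 1100 CPM at 12 h and 848 and 808 CPM at 24 h. The number higher was 5 with no filter, 1 without 12 h B and 1 without 24 h B.

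Alas1, the first enzyme of haem synthesis, rose from 94.0 and 104 CPM to 280 and 295 CPM (log2 change 1.53 ± 0.09, adjusted p = 6.02e-10). Fth1, the ferritin heavy chain, fell from 1100 and 1181 CPM to 564 and 607 CPM (log2 change -0.96 ± 0.18, adjusted p = 0.000682), and Slc11a1, a metal transporter of phagosomes, from 14.3 and 12.8 CPM to 1.74 and 2.25 CPM (log2 change -2.76 ± 0.21). Over the haem and iron list 4 of 15 fell (26.7%) and 2 rose (13.3%), beside 11.5% and 8.01% of all genes tested. Both numbers were smaller without some single libraries.

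Among integrins and adhesion genes, 6 of 19 fell and 4 rose (median -0.30). Itga9 fell from 96.1 and 92.5 CPM to 47.9 and 43.6 CPM, and Itgb7 from 12.4 and 13.6 CPM to 5.63 and 6.04 CPM, while Itgam rose as described above. With no filter, or with only the libraries at the compared times, 10 of this list were lower. Of 14 hypoxia-inducible genes 2 were higher (14.3%, and 4 genes with no filter) and 3 lower (21.4%). Of all genes tested 8.01% were higher and 11.5% lower. Vegfa, an endothelial growth factor, rose from 27.7 and 27.7 CPM to 53.5 and 52.5 CPM, and Ndrg1 fell from 61.8 and 60.0 CPM to 28.1 and 30.0 CPM. Bcl2l1, which encodes the survival protein BCL-XL, fell from 49.9 and 49.7 CPM to 25.4 and 27.2 CPM (log2 change -0.92 ± 0.11, adjusted p = 2.58e-06). The falls were not confined to survival genes: Bcl2l11, which promotes cell death, fell too (log2 change -0.37), a call lost without some single libraries. In the BCL2 family 5 of 15 fell, and the number lower was 3 without 12 h A and 2 without 24 h B.

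The largest falls among well expressed genes were outside most of the lists. Gas6, a ligand of the TAM receptor kinases, was at 52.6 and 60.0 CPM at 12 h and at 2.90 and 2.78 CPM at 24 h, a log2 change of -4.31 ± 0.16 (adjusted p = 8.49e-13). Angptl2, a secreted angiopoietin-like protein, went from 53.9 and 56.6 CPM to 6.18 and 5.76 CPM, and Mmp14, a membrane metalloproteinase, from 77.9 and 87.2 CPM to 11.8 and 11.9 CPM. Both 24 h libraries were below both 12 h ones for all 3, as the rule that chose them required. Plxnb2, a semaphorin receptor, fell from 184 and 182 CPM to 35.5 and 35.3 CPM (log2 change -2.37 ± 0.17). The others among the 12 lowest were Trp53i11 at -3.10, Rbms3 at -2.89, Krt80 and Car2 at -2.50 and Aebp1 at -2.43. In absolute level, Vim, the intermediate filament vimentin, fell from 596 and 617 CPM to 260 and 281 CPM (log2 change -1.16 ± 0.08), and Adgrg1, an adhesion receptor also called GPR56, from 1082 and 1122 CPM to 475 and 460 CPM.

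A small number of genes went from nearly no reads to clear expression or the reverse, with under 0.1 CPM in both libraries of one time and at least 0.5 CPM in both of the other. There were 3 such rises and 13 such falls. Cftr, a chloride channel, had 1 count at 12 h and 144 at 24 h, a ratio of 138 (95% interval 24.3 to 5470). Sdc4, a heparan sulfate proteoglycan, had 132 counts at 12 h and 2 at 24 h, a ratio of 69.0 (95% interval 18.7 to 576). Bpifb3 had 176 and 3 counts, a ratio of 61.4 (95% interval 20.7 to 300.0), and Gfra2, a receptor for neurturin, 67 and 3, a ratio of 23.4 (95% interval 7.66 to 116).

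The change was then set beside the step from 36 to 48 h, which also lasts 12 h and shares no library with it. Of the 1171 genes that rose between 12 and 24 h, 262 (22.4%) also rose between 36 and 48 h and 45 (3.84%) fell, beside 7.73% higher and 5.01% lower of all genes tested at the later step. Of the 1688 that fell, 168 (9.95%) also fell and 250 (14.8%) rose. The difference between the 2 steps was called for 2335 genes (16%), in 938 (6.42%) with the more positive change at 12 to 24 h and in 1397 (9.56%) with the more negative. The number called was 1510, 1541, 1412, 1365 and 1340 without 12 h A, 24 h A, 36 h A, 48 h A and 24 h B, in that order.

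**Figure D4:**
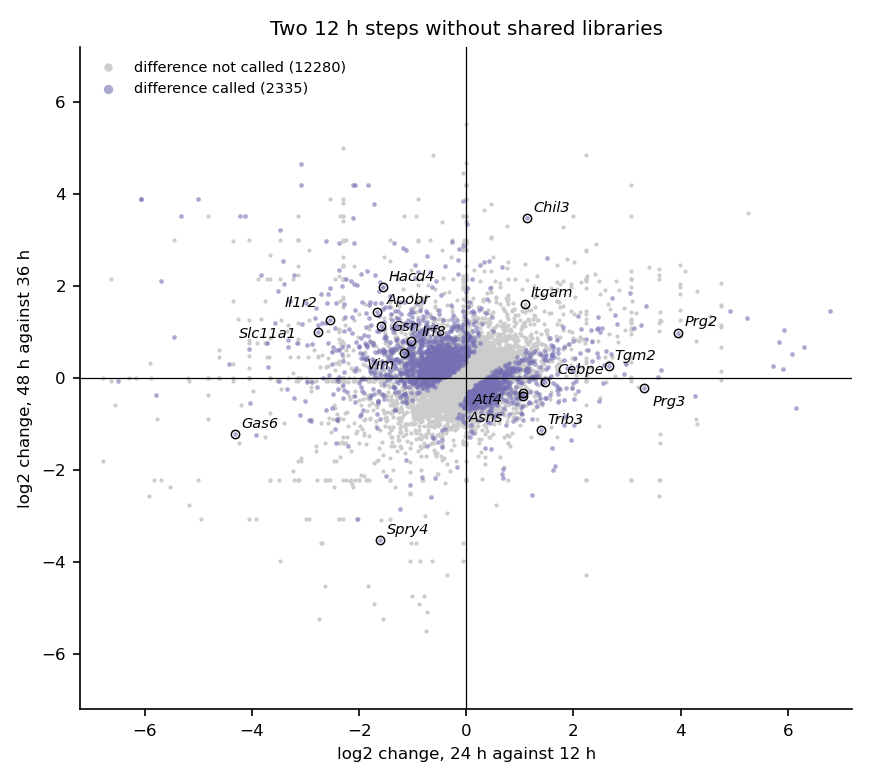
Log2 change of each tested gene between 12 and 24 h (horizontal axis) and between 36 and 48 h (vertical axis), with the 2335 genes whose changes differed between the steps in purple and the others in grey. Trib3, Atf4 and Asns lie right of and below the centre, at 1.39, 1.06 and 1.06 on the horizontal axis, and Hacd4, Apobr and Slc11a1 lie left of and above it, at -1.56, -1.67 and -2.76.

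In the amino acid response, endoplasmic reticulum and ribosome biogenesis lists every called difference was more positive at the earlier step. For the amino acid response the difference was called in 15 of 21 genes, all more positive at 12 to 24 h. In this list 12 of 21 fell at 36 to 48 h. Of all genes tested, 6.42% had a called difference more positive at 12 to 24 h and 9.56% more negative. At 36 to 48 h 7.73% of all genes tested were higher and 5.01% lower. Atf4 had a log2 change of 1.06 at the earlier step and -0.39 at the later, a difference of 1.45 (adjusted p = 7.5e-07). Trib3 had 1.39 and -1.13, a difference of 2.53 ± 0.31. For the endoplasmic reticulum list the difference was called in 15 of 22, all more positive, and 5 of 22 fell later. In the ribosome biogenesis list 19 of 26 fell at the later step, and the difference was called in 14, all more positive at 12 to 24 h.

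Lists of maturing cells were divided. The same shares of all genes tested apply to the later counts and the differences below. In the primary granule list the difference was called in 7 of 17, with 6 more positive at 12 to 24 h, in the eosinophil list in 5 of 10, with 3 more positive, and in the mast cell and basophil list in 5 of 10, all more positive. Of the mature neutrophil and phagocyte list 28 of 41 rose at 36 to 48 h, and the difference was called in 21, with 15 more negative at 12 to 24 h. In the secondary and tertiary granule list 14 of 20 rose later against 5 at the earlier step. Chil3 had a log2 change of 1.13 at the earlier step and 3.47 at the later, a difference of -2.34. The monocyte list had 9 of 24 higher at the later step, and all 9 called differences were more negative at 12 to 24 h. The growth factor receptor list had 9 of 20 higher and 1 lower at the later step, and all 8 called differences were more negative. Lysosome genes had 15 of 26 higher at the later step, against 5 higher and 5 lower at 12 to 24 h. At 12 to 24 h the number of lysosome genes higher was 3 without 24 h B, and the number lower was 2 without 24 h A, 2 without 12 h B and 1 without 24 h B.

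Single genes followed several courses over the 10 times. Prg2 was at 8.79 ± 1.5 CPM (mean ± SD, n = 2) at 12 h and 136.5 ± 5.4 CPM at 24 h, was highest at 48 h with 1466 ± 243 CPM, and was at 40.6 ± 2.9 CPM at 120 h. Cebpe was already above its 0 h level of 8.85 ± 0.79 CPM at 12 h, with 43.3 ± 10.0 CPM, and reached 119.6 ± 3.4 CPM at 24 h and 161 ± 6.6 CPM at 36 h. Trib3 was lower at 12 h (10.4 ± 0.92 CPM) than at 0 h (35.6 ± 2.4 CPM), stood at 27.4 ± 2.5 CPM at 24 h and was at 12.5 ± 0.88 CPM at 48 h.

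Among genes that fell, Gas6 was at 105 ± 17 CPM at 0 h, 56.3 ± 5.2 CPM at 12 h, 2.84 ± 0.084 CPM at 24 h and 0.497 ± 0.028 CPM at 36 h. Flt3 fell earlier, from 431 ± 28 CPM at 4 h to 53.2 ± 0.80 CPM at 12 h. Irf8 was at 69.8 ± 6.3 CPM at 4 h, 37.1 ± 0.79 CPM at 12 h and 18.3 ± 0.97 CPM at 24 h. It was higher again later, at 30.4 ± 2.3 CPM at 48 h and 115 ± 0.80 CPM at 120 h. Hacd4, an enzyme of very long chain fatty acid synthesis, was at 16.7 ± 1.2 CPM at 12 h and 5.69 ± 0.88 CPM at 24 h. By 120 h it had reached 513 ± 81 CPM.

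**Figure D5:**
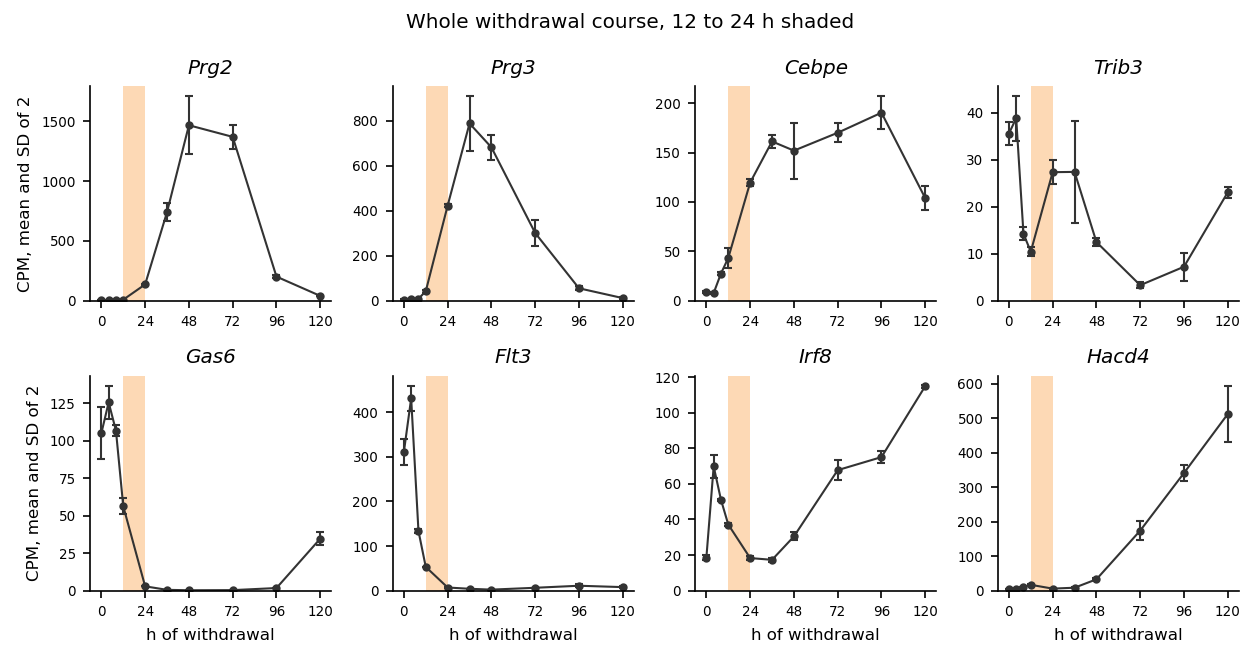
Level in CPM (vertical axis, mean and SD of the 2 libraries) of 8 genes over 0 to 120 h of withdrawal (horizontal axis), with the 12 to 24 h step shaded. Prg2 and Prg3 are higher at the end of the shaded step than at its start, Gas6 and Flt3 are lower, with Gas6 lower again at 36 h, and Irf8 and Hacd4 are lower at its end than at its start and higher at 48 h.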

How the data were processed

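Stranded, oligo-dT selected RNA libraries were sequenced as 101 bp read pairs, and the submitters' processing notes name STAR 2.4.2a, Picard and the mm10 build. The deposited table holds raw counts per gene, made by the authors without normalization, as its whole-number values show. The counting program, its strand setting and the annotation release are not given in the sources used here, so overlapping and antisense genes may share reads. The 4 lines for unmapped, multimapping and ambiguous reads and reads outside genes name no gene. They were left out of library sizes and tests, and held 7.925 to 8.236% multimapping, 4.117 to 4.512% outside genes, 1.678 to 1.927% unmapped and 1.176 to 1.228% ambiguous reads. Of 45319 genes, 45318 carry Ensembl identifiers, 44671 of which were given symbols and positions from GENCODE M21 (GRCm38).

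Counts were scaled by TMM and tested in edgeR 4.0.16 (limma 3.58.1, R 4.3.3) with quasi-likelihood tests over the 20 withdrawal libraries, time as a factor, filterByExpr by time and p-values adjusted by Benjamini-Hochberg across the 14615 tested genes. The 4 R07 libraries were not used. Calls were made below an adjusted p of 0.05. Errors are standard errors, the log2 change divided by the root of the F statistic. Levels are CPM on TMM-scaled totals, without length correction, and are not compared between genes. In simulated counts of 14340 genes at these depths, 200 genes were changed at 24 h, far fewer than the 2859 called in the data. Of the 2-fold changes 76% were recovered, and 7.65% of 170 calls were false. The adjusted threshold depends on how many genes change, so these shares do not give the recovery in this comparison. Ratios of few counts have exact binomial 95% intervals, and a group with 0 counts was set at a floor of 3 counts over the group. The alternatives were RLE scaling, no filter, DESeq2 1.42.0, only the libraries at the compared times, a block on the column letter, and leaving out each library in turn, where the remaining library of a time is assumed to vary like those of other times.

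Genes named are anchors of the system, the 12 called genes at each end of the log2 changes whose log2 CPM averaged at least 3 and whose times did not overlap, the 8 largest rises and 8 largest falls in CPM, up to 4 called members per list and direction with a mean of at least 1 CPM, genes that switched between under 0.1 and at least 0.5 CPM, and up to 6 per direction with opposite signs at 36 to 48 h. The comparison, the 39 gene lists, the motifs and the rule for named genes were chosen with earlier results of these data known. Lists are described by counts and medians, with no test of the list. A few genes are counted in the lists but not reported by name.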

Additional observations from a re-analysis of the deposited data

Results flagged for a closer look

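Of the named genes reported here, 36 changed in opposite directions at the 12 to 24 h and the 36 to 48 h steps, with both changes called and the difference between the steps called in edgeR. The values below are the log2 change at 12 to 24 h minus that at 36 to 48 h, and the 2 steps share no library. The genes had been named for their 12 to 24 h change or for this difference, so their number is a description.

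For 26 genes that fell and later rose the difference was negative. Among receptors and surface proteins it was -3.81 for Il1r2, -2.09 for Il6ra, -1.78 for Csf2rb2, -1.44 for Siglecf and -1.43 for Tgfbr2. For enzymes and transporters it was -3.76 for Slc11a1, -3.59 for Cyp4f18, -3.53 for Hacd4, -2.95 for Aldoc, -1.78 for Hmox1, -1.24 for Ptgs1 and -0.85 for F13a1. Apobr, a receptor for apolipoprotein B, had -3.11, Epsti1, an interferon-induced gene, -2.69, and the cytoskeletal genes Gsn and Vim had -2.71 and -1.71. Lysosomal genes included Ctss at -2.43, Cd68 at -1.31, Tfeb at -1.13 and Psap at -0.91. Transcription, cell cycle and death regulators were Trp53inp1 at -1.97, Irf8 at -1.84, Ccnd3 at -0.99, Cdkn2c at -0.91, Bcl2l11 at -0.71 and Runx1 at -0.69.

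For 10 genes that rose and later fell the difference was positive: 2.53 for Trib3, 1.66 for Slc7a8, 1.5 for Mthfd2, 1.45 for Atf4, 1.39 for Asns, 1.16 for Sesn2, 1.11 for Cycs, 0.87 for Calr, 0.82 for Manf and 0.81 for Ncl. Slc7a8 is a neutral amino acid transporter, and Trib3, Atf4, Asns and Sesn2 belong to the amino acid response.

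The 12 to 24 h call was lost without some single libraries for 13 of these genes. Ncl (adjusted p 0.0793 to 0.182), Sesn2 (0.0617 to 0.136) and Psap (0.0992 to 0.172) lost it without any 1 of the 4. Calr lost it without 12 h A (0.0524), and Hmox1 without 12 h A (0.153) or 24 h A (0.178). Trp53inp1 lost it without 12 h A (0.199) or 24 h B (0.0666), Bcl2l11 without 12 h A (0.167) or 24 h B (0.166), Manf without 12 h A (0.0573) or 24 h B (0.0526), and Cycs without 12 h A (0.0926) or 24 h B (0.0952). Tfeb lost it without 24 h A (0.081), 12 h B (0.101) or 24 h B (0.0525), and Ccnd3 without 24 h A (0.0763), 12 h B (0.0968) or 24 h B (0.0529). Cdkn2c lost it without 12 h A (0.115), 24 h A (0.079) or 24 h B (0.0561), and Runx1 without 12 h A (0.283), 24 h A (0.0572) or 24 h B (0.169) and with only the libraries at the compared times (0.0545).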

How the results depend on the processing

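Across RLE scaling, no filter, DESeq2, only the libraries at the compared times and the letter block, 2839 to 3131 genes were called between 12 and 24 h against 2859 as reported, and 2269 to 2949 against 2335 for the difference from the 36 to 48 h step. Leaving out 1 library at a time gave 1657 to 2028 genes called, 637 to 774 higher, 1020 to 1267 lower, 718 to 788 at least 2-fold, and 1340 to 2063 for the difference; fewer libraries remain in those fits. Of 190 named genes that were called, 139 kept call and direction under every alternative, 7 named genes not called stayed so, and 0 of 197 reversed. The table's letters A and B are not in the labels, which number replicates, so the letters share only a name: over 45 pairs of times, same-letter deviations correlated from -0.158 to 0.215 (0.106 between 12 and 24 h), with 7 pairs over 0.1. With the replicate block on the letter 2992 genes were called (1231 higher, 1761 lower), 912 at least 2-fold, and 2541 for the difference. With 2 libraries a time, a gene that was not called may still differ: in simulated counts 81% of changes of 1.5 on the log2 scale were recovered, and those not recovered were not looked at by level.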
